A study of Homo sapiens with 6 samples.

Results

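The RAS-ERK output and feedback genes HRAS, NRAS, DUSP4, DUSP5, DUSP6, SPRY2, SPRY4, ETV4 and ETV5 were followed in T24 cells, a human bladder carcinoma line that carries a mutant HRAS. The 9 genes were picked by name from the 20030 gene rows of the deposited table, for their roles in the pathway, and each has 1 row. Both groups were T24 cells. One was labelled NC, and no label explains these letters or names a construct. The other was labelled sh-circRIMS1, with data columns that read si in place of sh, so whether a short hairpin or a small interfering RNA was used is not settled. Each group had 3 libraries, with no dose, time or clone given, and the deposited design text asks how messenger RNA differs between the groups. The level of circRIMS1, a circular RNA of the RIMS1 locus, cannot be read from values per gene, so the knockdown itself was not measured here. Values are FPKM, fragments scaled by transcript length and by the mapped fragments of the library, which puts genes on a scale per length. The labels' protocol names RNase R, which removes linear RNA, and whether it applied here is unclear. If it did, FPKM of different genes, or of 1 gene in different libraries, may not compare as levels in the cell.

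RAS proteins are small GTPases that, when bound to GTP, switch on a kinase cascade of RAF, MEK and ERK. Active ERK raises the transcription of its own inhibitors, among them phosphatases of the DUSP family, which remove phosphate from MAP kinases, and Sprouty proteins, which damp the signal upstream of and at RAF. It also raises the PEA3 group of ETS transcription factors, to which ETV4 and ETV5 belong, so the RNA of these genes is widely used as a readout of the pathway. In bladder cancer the pathway is often driven by mutant FGFR3 or mutant RAS.

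Deposited FPKM summed to between 268143 and 284682 per library. Replicate 2 of sh-circRIMS1 stood apart from the other 2 libraries of its group (Pearson's r of log2 values across 10408 genes 0.974 and 0.9747, against 0.997 between replicates 1 and 3). Values without it are given for each of the 9 genes, for counts that it moves and for some other genes. Named genes for which none is given can shift without it too. Replicate 2 was left out after its values were seen, and the 2 libraries that remain lie close together. Of all genes tested then, 36.8% were higher and 23.9% lower. Smaller limma adjusted p-values without it are thus no added support. The bladder origin was checked on 14 urothelial and epithelial markers, of which 5 had a mean FPKM of at least 1. KRT7, KRT8 and KRT18 were abundant, GATA3 was near 0 and UPK1B, UPK3A and KRT20 were listed at 0 in every library. The summed FPKM of these 14 markers was 1244 to 1288 in NC and 706 to 958 in sh-circRIMS1. For 7 leukocyte markers the sum was 4.97 to 6.08 in NC and 17.0 to 23.7 in sh-circRIMS1, mostly CD68, with CD3E listed at 0 in every library. Sums were 15.3 to 16.6 and 15.4 to 20.6 for 5 endothelial markers, and 0.164 to 0.228 and 0.723 to 1.02 for 6 fibroblast markers. The endothelial sum was mostly CDH5, whose mean went from 15.4 to 13.7 FPKM, while that of TIE1 went from 0.133 to 2.70 FPKM. Within sh-circRIMS1 both were highest in replicate 2 (16.0 and 4.18 FPKM). The part of these marker shifts in the results below was not tested. In such bulk RNA, fewer cells of a type and less RNA per cell cannot be told apart.

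All 9 genes passed the filter of a mean FPKM of at least 1, which left 10408 genes for limma on log2(FPKM + 0.5). DUSP5, SPRY2 and SPRY4 were higher in sh-circRIMS1, HRAS and ETV5 were lower, and NRAS, DUSP4, DUSP6 and ETV4 did not pass an adjusted p of 0.05. Among all genes tested 37.7% were called, with 25.0% of genes higher and 12.7% lower. Under median-of-ratios scaling 17.2% were higher and 23.3% lower, and the calls of the 9 genes again numbered 3 higher and 2 lower. Counts of 3 and 2 among 9 are close to that background, and nothing is read from them for the group. The median change of the 9 was 0.03 on the log2 scale, against 0.06 over all tested genes. FPKM did not overlap between the groups for the 5 called genes, as for 57.5% of tested genes, 35.5% with sh-circRIMS1 above NC and 22.0% with it below.

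In NC the order of mean FPKM was DUSP5 (73.6), HRAS (56.9), NRAS (26.3), DUSP4 (25.5), ETV5 (22.8), ETV4 (18.1), DUSP6 (17.9), SPRY4 (15.4) and SPRY2 (8.43). The ranges of NRAS and DUSP4 overlapped, as did those of ETV4 and DUSP6, and no other neighbours in this order did. DUSP5 lay above 96.0% and HRAS above 91.5% of tested genes in mean level over the 6 libraries, and SPRY2 above 58.1%.

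**Figure D1:**
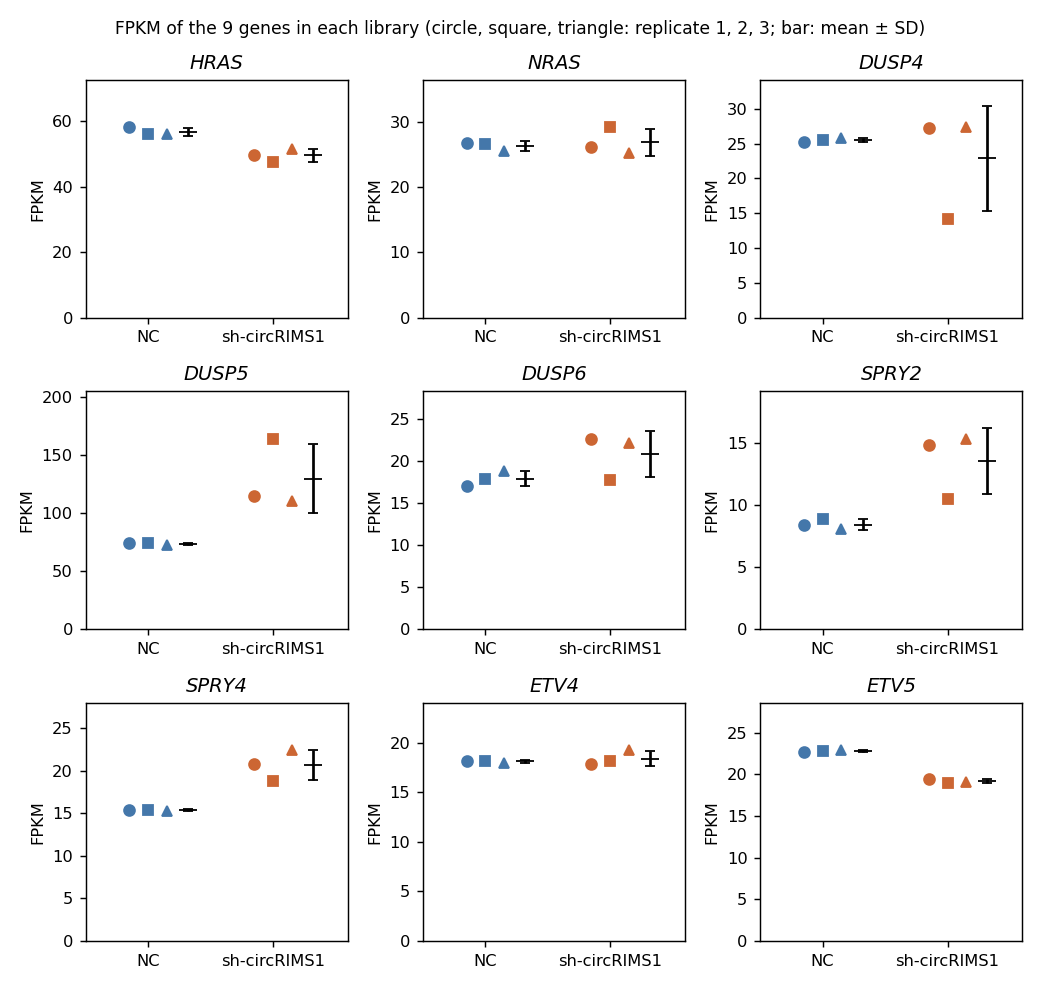
FPKM (y axis, from 0) of each of the 9 genes in the 3 NC libraries (blue) and the 3 sh-circRIMS1 libraries (orange), with circle, square and triangle for replicates 1, 2 and 3 and the mean ± SD beside them. All sh-circRIMS1 libraries lie above all NC libraries for DUSP5, SPRY2 and SPRY4 and below them for HRAS and ETV5, while the square of replicate 2 lies alone at 14.1 FPKM for DUSP4 and at 164 FPKM for DUSP5.

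HRAS, the RAS gene that is mutant in this line, had the higher FPKM of HRAS and NRAS and fell. Its FPKM was 58.2, 56.1 and 56.3 in NC replicates 1, 2 and 3 and 49.7, 47.7 and 51.7 in sh-circRIMS1 replicates 1, 2 and 3. Every sh-circRIMS1 library lay below every NC library, and the mean went from 56.9 ± 1.17 to 49.7 ± 1.97 FPKM (SD, n = 3 each), 87.4% of the NC level. On the log2 scale HRAS changed by -0.19 (SE 0.05, 95% interval -0.32 to -0.07, limma adjusted p = 0.0290). This call needed NC replicates 1, 2 and 3 and sh-circRIMS1 replicate 1, and leaving each out in that order ended it (limma adjusted p = 0.122, 0.0948, 0.0954 and 0.0682). Without sh-circRIMS1 replicate 2 it stood (-0.16, limma adjusted p = 0.00219). Values per gene carry no sequence, so the HRAS mutation itself was not seen here. The RefSeq gene LRRC56 overlaps HRAS, so where reads were counted without strand some can belong to LRRC56.

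NRAS, a close relative of HRAS that signals through the same RAF kinases, measured 26.8, 26.6 and 25.4 FPKM in NC and 26.1, 29.1 and 25.2 FPKM in sh-circRIMS1. The ranges overlapped, with sh-circRIMS1 replicate 2 highest of the 6 libraries. NRAS differed by 0.03 on the log2 scale (95% interval -0.14 to 0.19, limma adjusted p = 0.779), and without sh-circRIMS1 replicate 2 it was -0.03.

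Promoter windows from RefSeq (GRCh38.p14), 250 bases before to 50 after an annotated start, were used for 5 of the 9 genes, HRAS, NRAS, DUSP6, SPRY2 and SPRY4. They were searched on both strands for the ETS core CCGGAAG and the shorter GGAAG within it, the kind of site that ETS factors such as ETV4 and ETV5 recognise, for the AP-1 site TGANTCA, for the cAMP response element TGACGTCA and for the serum response element. Of 35116 windows of the same length, 10.3% held CCGGAAG, 71.9% GGAAG, 7.71% the AP-1 site, 1.85% the cAMP response element and 1.29% the serum response element. The windows of HRAS (chr11:535527-535826, minus strand) and NRAS (chr1:114716722-114717021, minus strand) are shown because both RAS genes hold CCGGAAG, while only HRAS was called. Capitals mark GGAAG or its reverse complement CTTCC, and the whole CCGGAAG where present. Its first base is at position -133 from the start in HRAS and at position 5 in NRAS, and each window holds GGAAG at 1 further place.
HRAS: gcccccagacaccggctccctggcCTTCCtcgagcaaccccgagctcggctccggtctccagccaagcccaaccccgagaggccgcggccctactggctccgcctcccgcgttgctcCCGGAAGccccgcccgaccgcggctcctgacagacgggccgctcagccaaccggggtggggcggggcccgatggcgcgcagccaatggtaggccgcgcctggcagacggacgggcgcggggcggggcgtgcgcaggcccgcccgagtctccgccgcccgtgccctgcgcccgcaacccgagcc
NRAS: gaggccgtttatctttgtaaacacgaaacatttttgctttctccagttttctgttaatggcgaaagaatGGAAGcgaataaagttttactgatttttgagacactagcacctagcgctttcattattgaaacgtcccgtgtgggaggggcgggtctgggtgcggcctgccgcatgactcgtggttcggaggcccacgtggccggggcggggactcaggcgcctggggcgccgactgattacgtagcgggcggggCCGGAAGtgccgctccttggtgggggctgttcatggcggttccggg

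Of the DUSP phosphatases, DUSP5 rose, and DUSP4 and DUSP6 did not pass the test with all 6 libraries. DUSP5, a nuclear phosphatase specific for ERK, measured 74.1, 74.2 and 72.6 FPKM in NC and 115, 164 and 111 FPKM in sh-circRIMS1. All 3 sh-circRIMS1 libraries were higher, with replicate 2 the highest, and the mean went from 73.6 ± 0.912 to 129.9 ± 29.7 FPKM (SD, n = 3 each), 176% of the NC level. Its rise was 0.79 on the log2 scale (SE 0.15, 95% interval 0.45 to 1.14, limma adjusted p = 0.00664). Without sh-circRIMS1 replicate 2 it was 0.61 (limma adjusted p = 1.72e-07), and the call held without any other single library. With all 6 libraries, 93.4% of tested genes had a smaller or more negative change than DUSP5. RefSeq lists the pseudogenes DUSP5P1 and DUSP5P2, and reads shared with them are uncertain.

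DUSP4, a nuclear phosphatase of ERK and other MAP kinases, measured 25.3, 25.6 and 25.8 FPKM in NC and 27.2, 14.1 and 27.3 FPKM in sh-circRIMS1. Replicates 1 and 3 lay just above the NC range and replicate 2 far below it. Over all libraries the log2 difference was -0.22 (95% interval -0.79 to 0.36, limma adjusted p = 0.506), and without replicate 2 it turned to 0.09 and passed the threshold (limma adjusted p = 0.0413). On the log2 scale replicate 2 differed from the mean of replicates 1 and 3 by -0.93. In size, the median of this gap over all tested genes was 0.21, and 2.54% of them had a larger one than DUSP4.

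DUSP6, a cytoplasmic phosphatase specific for ERK, measured 17.0, 17.9 and 18.8 FPKM in NC and 22.7, 17.8 and 22.2 FPKM in sh-circRIMS1. Replicates 1 and 3 lay above every NC library, and replicate 2 lay inside the NC range. The difference was 0.21 on the log2 scale (95% interval -0.04 to 0.45, limma adjusted p = 0.152), and without replicate 2 it was 0.32 (limma adjusted p = 0.000405). The RefSeq readthrough gene POC1B-DUSP6 shares sequence with DUSP6, and reads of the 2 genes are uncertain to that extent. The DUSP6 window (chr12:89352452-89352751, minus strand) is shown beside those of the Sprouty genes, since DUSP6, SPRY2 and SPRY4 are the feedback genes with a window here. It holds GGAAG at 2 places and no CCGGAAG, AP-1 site, cAMP response element or serum response element.
DUSP6: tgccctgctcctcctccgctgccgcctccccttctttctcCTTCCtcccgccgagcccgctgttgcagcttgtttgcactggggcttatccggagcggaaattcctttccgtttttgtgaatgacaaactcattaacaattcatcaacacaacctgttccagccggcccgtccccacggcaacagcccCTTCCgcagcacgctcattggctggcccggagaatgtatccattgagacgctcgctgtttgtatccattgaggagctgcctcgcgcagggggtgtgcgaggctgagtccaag

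**Figure D2:**
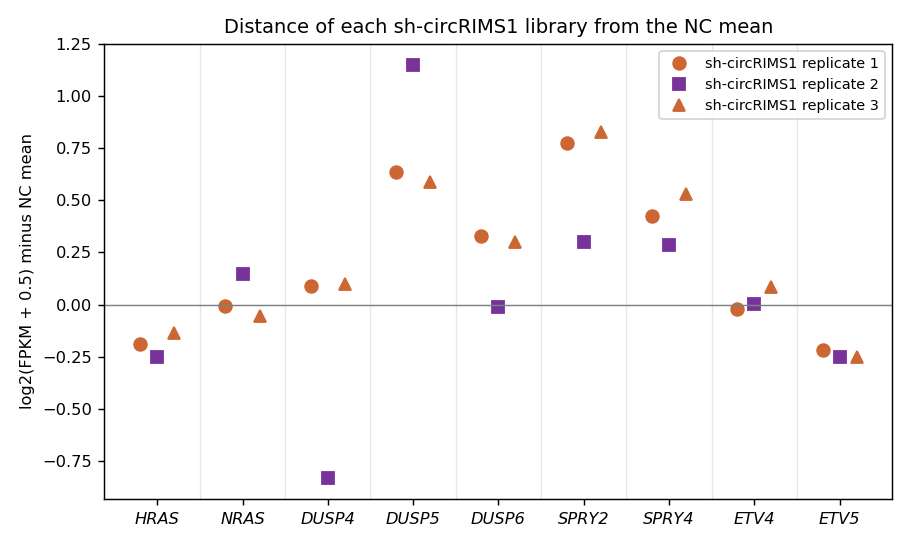
Distance of each sh-circRIMS1 library from the NC mean (y axis, log2(FPKM + 0.5) units) for the 9 genes (x axis), with replicate 2 as a purple square. Replicate 2 is the lowest of its group for HRAS (-0.25), DUSP4 (-0.83), DUSP6 (-0.01), SPRY2 (0.30) and SPRY4 (0.29) and the highest for DUSP5 (1.15) and NRAS (0.15), while the 3 libraries lie close together for ETV5.

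Both Sprouty genes rose. SPRY2, an inhibitor of receptor tyrosine kinase signalling to ERK, measured 8.40, 8.86 and 8.03 FPKM in NC and 14.8, 10.5 and 15.3 FPKM in sh-circRIMS1. All 3 sh-circRIMS1 libraries were higher, replicate 2 least so, and the mean went from 8.43 ± 0.414 to 13.5 ± 2.65 FPKM (SD, n = 3 each), 160.5% of the NC level. SPRY2 rose by 0.63 on the log2 scale (SE 0.14, 95% interval 0.30 to 0.97, limma adjusted p = 0.0137). The call was lost without NC replicate 1 or 3 (limma adjusted p = 0.0536 and 0.0584), and without sh-circRIMS1 replicate 2 the change was 0.80 (limma adjusted p = 1.79e-06).

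SPRY4, a second Sprouty inhibitor of the pathway, measured 15.4, 15.4 and 15.2 FPKM in NC and 20.8, 18.8 and 22.4 FPKM in sh-circRIMS1. The groups did not overlap, and the mean went from 15.4 ± 0.123 to 20.7 ± 1.78 FPKM (SD, n = 3 each), 135% of the NC level. This was a rise of 0.41 on the log2 scale (SE 0.07, 95% interval 0.24 to 0.59, limma adjusted p = 0.00554), and 0.48 without sh-circRIMS1 replicate 2 (limma adjusted p = 1.63e-05). The call held without any single library. RefSeq places the gene SPRY4-IT1 across part of SPRY4, so some reads can belong to it. The windows of SPRY2 (chr13:80341077-80341376, minus strand, the first of 3 listed starts) and SPRY4 (chr5:142324198-142324497, minus strand) are shown because both genes rose. The SPRY2 window holds GGAAG at 1 place, the other SPRY2 windows hold it at 3 and 1 places, and the SPRY4 window holds none of the motifs searched.
SPRY2: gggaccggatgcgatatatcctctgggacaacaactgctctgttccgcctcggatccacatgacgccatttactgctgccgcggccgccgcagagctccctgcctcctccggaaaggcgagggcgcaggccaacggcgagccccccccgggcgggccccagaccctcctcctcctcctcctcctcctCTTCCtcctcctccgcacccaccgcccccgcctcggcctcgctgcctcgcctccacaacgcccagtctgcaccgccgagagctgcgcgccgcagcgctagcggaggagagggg
SPRY4: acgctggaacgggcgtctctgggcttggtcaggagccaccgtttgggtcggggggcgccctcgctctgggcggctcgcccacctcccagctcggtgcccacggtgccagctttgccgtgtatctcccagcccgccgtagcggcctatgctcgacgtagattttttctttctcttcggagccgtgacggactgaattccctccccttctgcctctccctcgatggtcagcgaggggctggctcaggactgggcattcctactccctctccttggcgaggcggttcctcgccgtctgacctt

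The ETS factors ETV4 and ETV5 did not give the same call. ETV5 measured 22.7, 22.8 and 22.9 FPKM in NC and 19.5, 19.0 and 19.0 FPKM in sh-circRIMS1. All 3 sh-circRIMS1 libraries were lower and close together, and the mean fell from 22.8 ± 0.0969 to 19.2 ± 0.273 FPKM (SD, n = 3 each), 84.2% of the NC level. ETV5 changed by -0.24 on the log2 scale (SE 0.05, 95% interval -0.36 to -0.13, limma adjusted p = 0.00940), and -0.24 without sh-circRIMS1 replicate 2 (limma adjusted p = 0.000441). The call was lost without NC replicate 2 or 3 (limma adjusted p = 0.0517 and 0.0516). RefSeq lists the antisense gene ETV5-AS1 within ETV5, and without strand its reads could not be told apart.

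ETV4 measured 18.2, 18.2 and 18.0 FPKM in NC and 17.8, 18.2 and 19.2 FPKM in sh-circRIMS1. The NC values lay within the range of sh-circRIMS1, and the log2 difference was 0.02 (95% interval -0.11 to 0.15, limma adjusted p = 0.780). It was 0.03 without sh-circRIMS1 replicate 2 and -0.01 without replicate 3. RefSeq has the gene DHX8 overlapping ETV4, so reads there can belong to either.

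**Figure D3:**
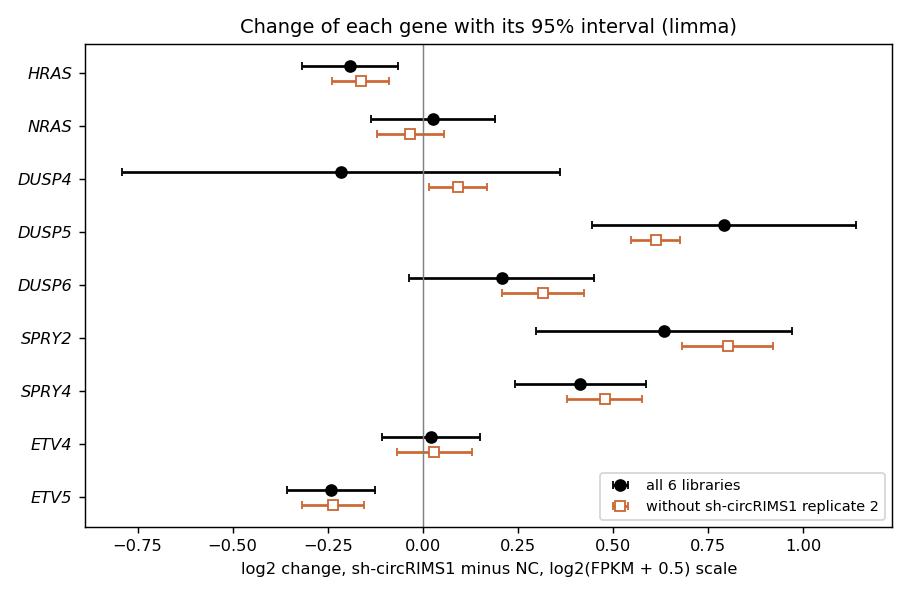
Log2 change of each gene, sh-circRIMS1 minus NC (x axis, log2(FPKM + 0.5) scale), with its 95% interval from limma, over all 6 libraries (black circles) and without sh-circRIMS1 replicate 2 (open orange squares). Intervals from all 6 libraries exclude 0 for HRAS, DUSP5, SPRY2, SPRY4 and ETV5, and leaving out replicate 2 moves DUSP4 from -0.22 to 0.09 and DUSP6 from 0.21 to 0.32.

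Changes within 5 pairs of these genes were compared through the ratio of their FPKM in each library, with an exact two-sided permutation test that cannot go below p = 0.1. How often ratios of other gene pairs do not overlap between the groups was not computed. For single tested genes, 57.5% did not overlap, so nothing is read from a lack of overlap in these ratios. The ratio of ETV4 to ETV5 was 0.802, 0.801 and 0.788 in NC and 0.916, 0.956 and 1.01 in sh-circRIMS1, so the groups did not overlap. The change of ETV4 lay 0.26 above that of ETV5 on the log2 scale (exact permutation p = 0.1, 0.125 adjusted over the 5 pairs), and 0.27 without sh-circRIMS1 replicate 2. The ratio of HRAS to NRAS was 2.17, 2.11 and 2.21 in NC and 1.91, 1.64 and 2.05 in sh-circRIMS1, a log2 difference of -0.22 (exact permutation p = 0.1, 0.125 adjusted), or -0.13 without replicate 2. The HRAS to NRAS ratio was lower in every sh-circRIMS1 library.

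The ratio of DUSP5 to DUSP6 was 4.35, 4.14 and 3.85 in NC and 5.06, 9.24 and 4.996 in sh-circRIMS1, a log2 difference of 0.58 (exact permutation p = 0.1, 0.125 adjusted). Without replicate 2 it was 0.30. The ratio of DUSP4 to DUSP6 was 1.48, 1.43 and 1.37 in NC and 1.1996, 0.794 and 1.23 in sh-circRIMS1, a log2 difference of -0.42 (exact permutation p = 0.1, 0.125 adjusted), or -0.22 without replicate 2. Neither DUSP ratio overlapped between the groups, with replicate 2 the most extreme. Both divide by DUSP6, so they are not separate observations. The ratio of SPRY2 to SPRY4 was 0.544, 0.575 and 0.528 in NC and 0.711, 0.556 and 0.684 in sh-circRIMS1 (exact permutation p = 0.2, 0.2 adjusted), and here the groups overlapped through replicate 2. The log2 difference was 0.22, and 0.32 without that library.

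Other genes of the pathway were described by role. Of 81 further genes in 9 role lists, 63 were tested, 15 were higher, 6 were lower and 42 did not pass, beside 25.0% higher and 12.7% lower over all tested genes. Their median log2 change was 0.06, the same to 2 decimals as over all tested genes. Without sh-circRIMS1 replicate 2, 21 were higher and 18 lower, beside 36.8% and 23.9% of all genes tested then, and all 21 genes called with 6 libraries kept direction and call. Under median-of-ratios scaling the balance turned as it did over all tested genes, with 11 higher and 14 lower, beside 17.2% and 23.3%. Of the 15 higher genes 3 had an NC mean under 1 FPKM and passed the filter only through sh-circRIMS1. Their tests are not used, though the counts include them. Without NC replicate 1 the counts were 7 and 3, without NC replicate 2 they were 8 and 3, and without NC replicate 3 they were 10 and 3. Of all genes tested then, 15.6% to 15.8% were higher and 6.55% to 6.62% lower. The 3 genes under 1 FPKM in NC, DUSP10, DUSP16 and EPHA4, were among the higher ones each time. Counts by role below include those of the 9 genes that belong to the list. Nothing is read for a role from counts in lists this small.

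Among 5 tested RAS genes 1 rose and 1, HRAS, fell, beside 25.0% higher and 12.7% lower over all tested genes. Without sh-circRIMS1 replicate 2 there were 1 and 2, beside 36.8% and 23.9% of all genes tested then. RRAS, a RAS relative with roles in integrin adhesion, was 19.1, 17.3 and 18.8 FPKM in NC and 32.1, 64.6 and 29.6 FPKM in sh-circRIMS1, a log2 change of 1.08 (limma adjusted p = 0.0228). It was 0.73 without replicate 2, which lay far above the other libraries, and its call was lost without NC replicate 1, 2 or 3 (limma adjusted p up to 0.0777). Of 7 exchange factors and adaptors 3 fell and 1 rose, beside 12.7% lower and 25.0% higher over all tested genes. Without sh-circRIMS1 replicate 2, 5 were lower and 1 higher, beside 23.9% and 36.8% of all genes tested then. Under median-of-ratios scaling 4 were lower and 0 higher, beside 23.3% and 17.2% of all tested genes. PTPN11, which encodes the phosphatase SHP2 that links receptors to RAS, fell from 39.4 to 26.7 FPKM (log2 change -0.55, limma adjusted p = 0.000627), and the adaptor GAB2 fell from 4.02 to 3.04 FPKM. The calls of the adaptors SHC1 (lower, -0.15) and FRS2 (higher, 0.35) each ended when any library but sh-circRIMS1 replicate 2 was left out, with limma adjusted p up to 0.138 and 0.103. Without that replicate their log2 changes were -0.15 and 0.44.

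Among 7 tested GTPase-activating proteins, which switch RAS off, 2 rose and 1 fell, beside 25.0% higher and 12.7% lower over all tested genes. Without sh-circRIMS1 replicate 2 the counts were 3 and 1, beside 36.8% and 23.9% of all genes tested then. DAB2IP rose from 3.86 to 6.84 FPKM (log2 change 0.75, limma adjusted p = 0.000302), while RASAL2 fell from 5.02 to 3.49 FPKM. Of 11 RAF, MEK and ERK kinases and scaffolds 1 rose and 2 fell, beside 25.0% higher and 12.7% lower over all tested genes. The lower count was 5 without sh-circRIMS1 replicate 2 and 1 without replicate 3 of that group, beside 23.9% and 10.8% of all genes. It was 0 when any single NC library was left out, beside 6.55% to 6.62%. Under median-of-ratios scaling or with array weights it was 6, beside 23.3% in both. In each of these settings 1 of the list was higher. MAPK3, which encodes the kinase ERK1, rose from 12.5 to 16.3 FPKM (log2 change 0.37, limma adjusted p = 0.00448), whereas PEBP1, an inhibitor of the kinase cascade, fell from 148 to 100.3 FPKM and the scaffold IQGAP1 from 63.6 to 51.6 FPKM. The call of PEBP1 was lost without NC replicate 1, 2 or 3 and that of IQGAP1 without any of these or sh-circRIMS1 replicate 3 (limma adjusted p up to 0.0590 and 0.0697). Without sh-circRIMS1 replicate 2 the log2 change went from -0.57 to -0.41 for PEBP1 and from -0.30 to -0.37 for IQGAP1. Of 7 ERK effector kinases 0 passed with limma, and 1 did without the intensity trend. RPS6KA5 alone had an unadjusted p under 0.05 (limma, 0.0437), and it is named after its values were seen. The most abundant, MKNK2 and RPS6KA4, measured 39.2 and 29.7 FPKM in NC and 41.0 and 27.6 FPKM in sh-circRIMS1. Without sh-circRIMS1 replicate 2, 4 effector kinases were higher, RPS6KA5 among them (limma adjusted p = 0.0442), beside 36.8% of all genes tested then.

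**Figure D4:**
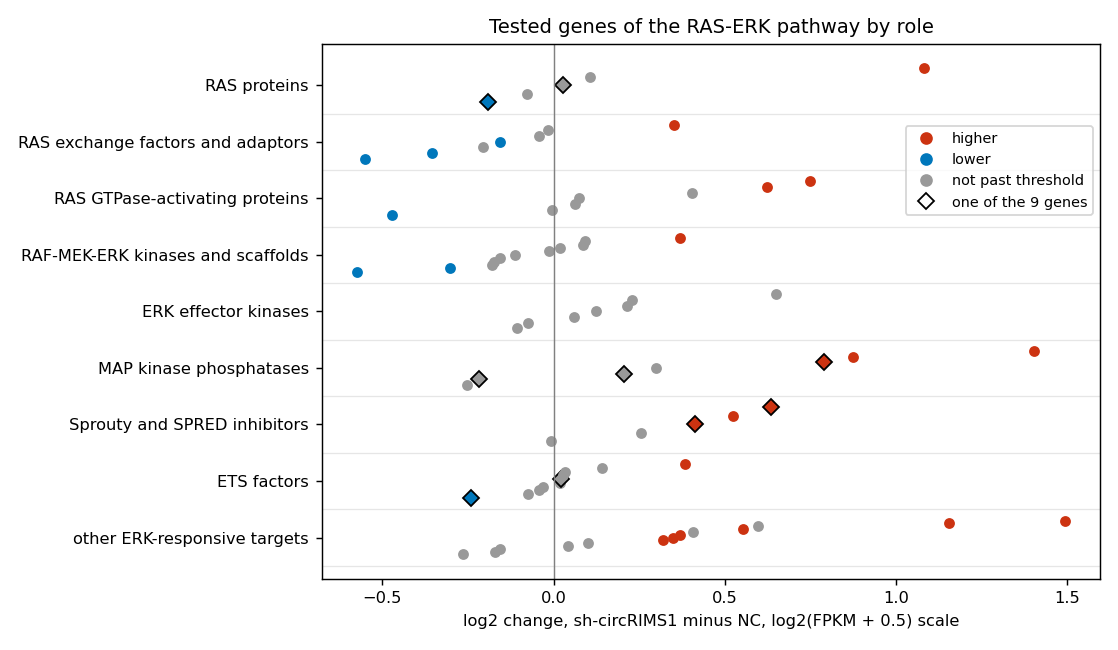
Log2 change, sh-circRIMS1 minus NC (x axis, log2(FPKM + 0.5) scale), of every tested gene in 9 role lists of the RAS-ERK pathway (rows), coloured by its limma call, with the genes followed here as outlined diamonds. In the Sprouty and SPRED row 3 of 5 genes are higher, and in the ERK effector kinase row 0 of 7 pass the threshold. Over all tested genes 25.0% are higher and 12.7% lower.

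Among 7 tested MAP kinase phosphatases 3 were called higher and 0 lower, beside 25.0% and 12.7% over all tested genes, and 0 were lower at an unadjusted limma p under 0.05. Of the 3, DUSP16 and DUSP10, phosphatases that act mainly on JNK and p38, passed the filter only through their level in sh-circRIMS1, so nothing is read from this count. At a mean FPKM of at least 5 DUSP5 alone was higher, beside 21% of genes tested then. Without sh-circRIMS1 replicate 2, 6 were higher, DUSP10 and DUSP16 among them, and 1 lower, beside 36.8% and 23.9% of all genes. The lower one was DUSP1 (log2 change -0.39, limma adjusted p = 1.11e-06), named after its values were seen. It measured 152 FPKM in NC and did not pass with all 6 libraries (-0.25, limma adjusted p = 0.134). DUSP10 measured 0.53 FPKM in NC and 2.30 FPKM in sh-circRIMS1, and DUSP16 0.998 and 2.25 FPKM, with no overlap between the groups for either. Among 5 tested Sprouty and SPRED genes 3 rose and 0 fell, beside the same 25.0% and 12.7% over all tested genes. In this list 0 were lower at an unadjusted limma p under 0.05. The Sprouty-related SPRED3 rose from 1.59 to 2.52 FPKM, but did not pass when NC replicate 1 or 2 was left out (limma adjusted p up to 0.0899). Without NC replicate 1 only SPRY4 of this list was called. The log2 change of SPRED3 went from 0.53 to 0.40 without sh-circRIMS1 replicate 2. Among 10 ETS factors ETV5 fell and ETV1, the other PEA3 factor, rose from 1.69 to 2.36 FPKM. These were the only calls of the list, beside 12.7% lower and 25.0% higher over all tested genes. The ETV1 call ended when any library but sh-circRIMS1 replicate 2 was left out (limma adjusted p up to 0.0940). Without sh-circRIMS1 replicate 2 the list had 1 higher and 3 lower, beside 36.8% and 23.9% of all genes tested then.

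Of 13 other ERK-responsive targets 6 were called higher and 0 lower, beside 25.0% and 12.7% of all tested genes. Without sh-circRIMS1 replicate 2 they were 6 and 3, beside 36.8% and 23.9% of all genes tested then. With all libraries 0 targets were lower at an unadjusted limma p under 0.05. Without NC replicate 1, 2 or 3 the higher count was 2, 3 or 4, beside 15.6% to 15.8% of all genes tested then. Of the 6, the ephrin receptor EPHA4 passed the filter only through sh-circRIMS1, and not without replicate 1 or 3 of that group. It measured 0.373 FPKM in NC and 1.97 FPKM in sh-circRIMS1. Its test is not used, though each of the higher counts above includes it. PLAUR, the urokinase receptor, rose from 7.80 to 18.1 FPKM (log2 change 1.15, limma adjusted p = 0.000470). The transcription factors EGR1 and FOSL1 rose, with log2 changes of 0.37 and 0.32. The EGR1 call was lost without NC replicate 1 (limma adjusted p = 0.0506) and that of FOSL1 without NC replicate 1 or 2 (up to 0.0603). PHLDA1 and IER3 made up the 6, at 0.55 and 0.35, and both calls were lost without NC replicate 1, 2 or 3 (limma adjusted p up to 0.0518 and 0.0691). Without sh-circRIMS1 replicate 2 the log2 change was 1.27 for PLAUR, 0.42 for EGR1, 0.26 for FOSL1, 0.41 for PHLDA1 and 0.26 for IER3. CCND1, the cyclin of G1 phase and an ERK target, measured 159 FPKM in NC and 145 FPKM in sh-circRIMS1 (limma adjusted p = 0.341), and it was chosen after its values were seen. Its FPKM was 129.5, 175 and 129 in sh-circRIMS1 replicates 1, 2 and 3, and without replicate 2 it was lower (log2 change -0.30, limma adjusted p = 6.51e-06).

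For each of the 9 genes the tested gene with the most similar pattern was found by Pearson's r of log2 values over the 6 libraries, as a description. It was TGFBR3 for HRAS, HYPK for DUSP4, POLR3GL for DUSP5, DDOST for DUSP6, L3MBTL3 for SPRY2, ISCU for SPRY4 and EHD2 for ETV5, with r from 0.998 to 1.00. For NRAS and ETV4 it was C9orf64 (r = 0.989) and CLDND1 (r = 0.979). These libraries share the group difference and the distance of replicate 2, so high values are common. Of tested genes, 10.0% had an r over 0.95 with DUSP5, 6.995% with SPRY4 and 0.0288% with ETV4.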

How the data were processed

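RNA of T24 cells was sequenced in 3 NC and 3 sh-circRIMS1 libraries, made from total RNA with ribosomal RNA depletion, RNase R digestion and directional synthesis, per the labels' protocols. Whether RNase R, which removes linear RNA, applied here is unclear, since linear messenger RNAs are abundant. The authors deposited FPKM per gene. Trimmomatic, HISAT2, Cufflinks, HTSeq, DESeq and StringTie are named in the submitters' processing notes, with no version or role. The genome build and the use of strand are not stated in the sources used here. Columns were matched to sample titles by the circ name and number.

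FPKM are not counts, and no count test was run on them. The absolute depth of the libraries is unknown. Ratios of values under 0.3 FPKM put relative depth at 1.01 to 1.17 times that of NC replicate 1. Genes with a mean of at least 1 FPKM (10408 of 20030) were tested on log2(FPKM + 0.5) with limma (version 3.58.1, R version 4.3.3), with group as the only term, an intensity trend and Benjamini-Hochberg adjustment over all tested genes at 0.05, two-sided. The scale understates changes of low genes. The labels do not say whether replicates were separate cultures, so the p-values reflect just the spread between these libraries, which may be technical. In a simulation of this comparison with 10408 genes, 89% of 100 genes changed by 1 and 53% of 100 changed by 0.5 on the log2 scale were called, with 0.108% of 10208 unchanged ones. It used independent noise with the same SD in both groups and changed few genes. The data hold 1 library that stands apart and 37.7% of genes called, so these rates may not carry over. The 9 genes and the role lists were chosen with earlier results of these data known. Besides the 9 genes, the text names up to 4 called genes per list by smallest p, or, with none called, the 2 most abundant, and says where a gene was added. Some listed genes enter the counts and are not reported individually here. Alternatives covered pseudocount, filter, scaling, weights, trend, replicate number and each library left out.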

Additional observations from a re-analysis of the deposited data

How the results depend on the processing

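Under the alternatives with all 6 libraries, DUSP5, SPRY2, SPRY4 and ETV5 kept their direction and call, and HRAS did except with the replicate number as a block (-0.193, limma adjusted p = 0.0853), where 1 gene of the 9 was lower. Same-numbered libraries did not deviate together (r = -0.0258, -0.00335 and -0.0402 across genes). Replicate 2 of sh-circRIMS1 dominates the deviations within its group, so these values cannot settle whether the numbers pair the libraries. The block gave 2142 genes higher and 996 lower in all. Median-of-ratios scaling moved the median change of all tested genes from 0.06 to -0.0546, a shift of -0.117 that changes under it are read against. Quantile normalization moved the median to -0.0533, a shift of -0.116, but did not move each gene alike. Under it DUSP5 went from 0.79 to 0.85, while SPRY2 went from 0.63 to 0.54. Under either scaling 3 of the 9 genes were again higher and 2 lower. All tested genes had 1795 higher and 2429 lower under median of ratios and 1588 and 2085 under quantile normalization, against 2598 and 1322. NRAS turned to -0.0982, -0.000582 and -0.0378 under median of ratios, quantile normalization and array weights, ETV4 to -0.103 and -0.0155 under the first and second of these, and DUSP4 to 0.0722 with array weights, none of them called. With array weights DUSP6 was called (0.30, limma adjusted p = 0.000513), and 3983 genes were higher and 2424 lower. At a mean FPKM of at least 5, 1469 of 7004 genes were higher, and 8 of the other pathway genes. Of these, 11 were higher and 14 lower under median of ratios, and 22 higher and 17 lower with array weights. The cause was not tested.

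Leaving out 1 library gave 1630 to 3803 genes higher and 685 to 2474 lower in all, 2 to 5 of the 9 higher and 0 to 2 lower, and 7 to 21 of the other pathway genes higher and 3 to 18 lower. The log2 change ran from -0.22 to -0.16 for HRAS, -0.0332 to 0.0686 for NRAS, -0.373 to 0.0923 for DUSP4, 0.61 to 0.89 for DUSP5, 0.14 to 0.32 for DUSP6, 0.54 to 0.80 for SPRY2, 0.36 to 0.48 for SPRY4, -0.0102 to 0.0428 for ETV4 and -0.25 to -0.24 for ETV5. The differences within the 5 pairs kept their sign under the pseudocount, scaling and leave-one-out alternatives, and were not computed under the others. Read depth is unknown, so no counting error is given.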
